A study of Rattus norvegicus with 10 samples.

Results

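Pnlip, Pnliprp1, Pnliprp2, Cel, Pla2g1b, Amy2a3, Rnase1 and Reg1a are 8 genes for proteins that the exocrine pancreas secretes, and here they were followed in liver RNA of rats after a burn. They were taken as every probe set, the group of short probes that reads 1 transcript, whose only gene symbol in the probe table of the array was one of these 8. That gave 10 of the 8799 probe sets and 8 of the 4737 genes with a single symbol. Pnlip and Reg1a had 2 probe sets each. The genes were chosen with their levels on these same arrays known, at every time, so all their values are a description and carry no p-value.

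The arrays hold total RNA of rat liver and form 5 groups with 2 arrays in each. The first is sham rats, given as 0 h in the labels, and the others are rats at 1, 4, 8 and 24 h after a burn. Strain, sex, age, the size of the burn and the sham procedure are not given in the sources used here. Nothing tells if both arrays of a pair are separate animals, so p-values measure only array-to-array spread, which may be technical. The labelled tissue matched its markers: all 11 hepatocyte genes on the array passed the filter on low values, and Alb (albumin) lay between 42719 and 94417 on the 10 arrays.

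In the pancreas, acinar cells make digestive enzymes, store them in granules and release them into the duct. Lipases there split dietary fat, and amylase and ribonuclease split starch and RNA. Transcription of many enzyme genes in acinar cells depends on PTF1, a complex of Ptf1a, an E protein that binds the letters CANNTG with it, and Rbpjl, which binds TGGGAA-like letters. Hepatocytes handle fat with other lipases, such as hepatic lipase and the carboxylesterases.

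All 8 genes had their highest level at 1 h after the burn. All but Pnliprp2 were higher at 8 h than at 4 h and 24 h on every array. Only 3 of the 8, Pnlip, Pnliprp1 and Rnase1, were above sham at 8 h on all arrays and probe sets. Each of the 10 probe sets was higher on both 1 h arrays than on the other 8 arrays, which held for 6.49% of the 5285 probe sets tested. For 9 of the 10, all but Pnliprp2, both 8 h arrays also lay above every 4 h and 24 h array, and 1.25% of the probe sets tested had both features. The genes were chosen on these values, so the shares are given for scale only. The 1 h mean was 2.46 to 6.11 times the 8 h mean.

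As examples from the 8 genes, which all share the 1 h peak, the promoters of Pnlip, Pnliprp1, Cel and Reg1a are shown. Each is the 250 bases before the start of the gene in RefSeq, rat build GRCr8, read 5′ to 3′ on the strand of the gene. Capitals mark TATAAA, the TATA box, together with CANNTG and TGGGAA, each searched on both strands. The stretch of Pnlip lies at chr1:267784360-267784609 on the plus strand, Pnliprp1 at chr1:267853777-267854026 on the plus strand, Cel at chr3:32289020-32289269 on the minus strand and Reg1a at chr4:112450216-112450465 on the plus strand.
Pnlip: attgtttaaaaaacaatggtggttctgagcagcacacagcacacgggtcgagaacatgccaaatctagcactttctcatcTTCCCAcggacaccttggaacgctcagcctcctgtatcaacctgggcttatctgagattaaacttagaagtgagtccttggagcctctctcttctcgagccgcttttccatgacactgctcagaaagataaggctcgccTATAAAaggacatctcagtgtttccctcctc
Pnliprp1: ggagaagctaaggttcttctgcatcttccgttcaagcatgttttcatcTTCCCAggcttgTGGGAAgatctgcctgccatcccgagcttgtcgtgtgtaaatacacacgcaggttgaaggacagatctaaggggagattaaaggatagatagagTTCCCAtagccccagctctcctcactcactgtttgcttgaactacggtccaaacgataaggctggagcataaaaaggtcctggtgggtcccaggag
Cel: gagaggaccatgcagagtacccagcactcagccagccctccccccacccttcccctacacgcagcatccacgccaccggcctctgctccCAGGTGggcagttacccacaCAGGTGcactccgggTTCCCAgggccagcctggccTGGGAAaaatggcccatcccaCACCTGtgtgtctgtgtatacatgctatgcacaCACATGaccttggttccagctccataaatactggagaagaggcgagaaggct
Reg1a: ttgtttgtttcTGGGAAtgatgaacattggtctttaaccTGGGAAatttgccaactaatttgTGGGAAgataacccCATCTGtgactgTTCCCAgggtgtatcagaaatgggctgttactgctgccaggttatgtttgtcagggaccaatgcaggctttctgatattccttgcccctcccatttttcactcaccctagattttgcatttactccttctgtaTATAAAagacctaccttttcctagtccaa

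All 8 genes had an entry among the 33469 RefSeq promoters. TATAAA stood in 4 of the 8, against 12.9% of all promoters of that length, and TGGGAA in 6 of the 8, against 22.1%. The promoters without TGGGAA were those of Pnliprp2 and Amy2a3, while every promoter shown holds it. The CANNTG letters stood in 5 of the 8 and in 65.5% of all promoters. CACCTG, 1 form of CANNTG, stood in the Cel promoter alone of the 8, and in 15.9% of all. GATAAG, the letters that GATA factors read, was searched after the sequences had been seen and stood in 4 of the 8 and in 6.18% of all. A match is a description of letters and not a shown binding site. Pnlip, Pnliprp1 and Pnliprp2 are consecutive genes on chromosome 1, while the others lie on chromosomes 2, 3, 4, 12 and 15.

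Values below are intensities on a linear scale, as deposited. A log2 change sets the group means of log2 intensity against each other after every value under 36.4, the floor, was raised to it, and its SE comes from 1 model of all 10 arrays with n = 2 arrays per group. Where 1 group lay wholly under the floor, its fold is a lower bound, written with at least. Probe sets differ in how brightly they bind, so no gene is set against another by its level.

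Pnlip, pancreatic lipase, cuts triglycerides in the gut with the help of colipase. On the probe set M58369_at it read 1293 and 1271 on the sham arrays, 6693 and 7254 at 1 h, 312 and 247 at 4 h, 3009 and 2336 at 8 h, and 308 and 255 at 24 h. The 1 h and 8 h arrays lay above sham, and the 4 h and 24 h arrays lay below it and overlapped each other. The log2 change was 2.44 (SE 0.20, 5.44-fold higher) at 1 h and -2.21 (4.62-fold lower) at 4 h. It was 1.05 (2.07-fold higher) at 8 h and -2.19 (4.58-fold lower) at 24 h.

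The second Pnlip probe set, D88534_s_at, read 255 and 277 on the sham arrays, 2529 and 2466 at 1 h, 32.6 and 7.5 at 4 h, 492 and 498 at 8 h, and 62.5 and 80.2 at 24 h. It gave the same order of groups, except that its 4 h arrays, both under the floor, were separate from its 24 h arrays. The signal was 9.40-fold higher than sham at 1 h (log2 change 3.23, SE 0.17) and at least 7.30-fold lower at 4 h. The ending s_at marks probes that may read related transcripts as well, and the same holds for the Amy2a3 probe set and for 1 of the Reg1a probe sets. Over the 10 arrays the log2 values of the Pnlip probe sets correlated at r = 0.979.

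Pnliprp1 and Pnliprp2 are relatives of Pnlip. The first has little lipase activity of its own, and the second also takes galactolipids and phospholipids. Pnliprp1 read 33.7 and 124 on the sham arrays, 437 and 425 at 1 h, 7.9 and 18.9 at 4 h, 144 and 137 at 8 h, and 5.9 and 8.6 at 24 h. The 1 h and 8 h arrays were above both sham arrays, and all 4 h and 24 h arrays were under the floor. One sham array was under the floor as well, so the 4 h and 24 h groups overlapped sham on the log2 scale used. The split of the sham arrays set the size of the 1 h change, 2.68 (SE 0.49), which became 1.79 when sham array 1 was left out and 3.53 when sham array 2 was.

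Pnliprp2 read 36.8 and 43.4 on the sham arrays, 185 and 199 at 1 h, 64.0 and 23.0 at 4 h, 26.6 and 96.5 at 8 h, and 56.3 and 31.9 at 24 h. Only its 1 h arrays stood apart, 4.80-fold above sham (log2 change 2.26, SE 0.49). At 4, 8 and 24 h the arrays of each group lay on both sides of sham, near the floor. This probe set and the Reg1a probe set M62930_at passed the filter on low values through their 1 h arrays alone.

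Cel, carboxyl ester lipase, needs bile salts and also takes cholesteryl esters. It read 385 and 258 on the sham arrays, 1763 and 1570.5 at 1 h, 116 and 163 at 4 h, 328 and 417 at 8 h, and 126 and 213 at 24 h. The 8 h arrays overlapped sham, the 1 h arrays were above it and the 4 h and 24 h arrays below it. The level was 5.28-fold higher than sham at 1 h (log2 change 2.40, SE 0.33), 2.30-fold lower at 4 h and 1.92-fold lower at 24 h.

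Pla2g1b, the pancreatic phospholipase A2, frees a fatty acid from phospholipids. It read 412 and 452 on the sham arrays, 1697 and 1885.5 at 1 h, 29.5 and 37.2 at 4 h, 386.5 and 545 at 8 h, and 9.9 and 32.1 at 24 h. The 8 h arrays lay on both sides of sham, and 3 of the 4 arrays at 4 h and 24 h were under the floor. It was 4.15-fold higher than sham at 1 h (log2 change 2.05, SE 0.20) and at least 11.8-fold lower at 24 h.

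Amy2a3, a pancreatic alpha-amylase, cuts starch. Its probes may also read other amylase genes, which are near copies, and such reads cannot be separated here. It read 3015 and 3236.5 on the sham arrays, 8972.5 and 9305 at 1 h, 991 and 664 at 4 h, 3052 and 3068 at 8 h, and 788 and 1021 at 24 h. The 8 h arrays lay within the sham pair, with a log2 change of -0.03 (SE 0.23). The level was 2.92-fold higher than sham at 1 h, 3.85-fold lower at 4 h and 3.48-fold lower at 24 h.

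Rnase1 is the secreted pancreatic ribonuclease, which digests RNA. It read 146 and 130 on the sham arrays, 1111.5 and 1911 at 1 h, 60.0 and 67.2 at 4 h, 331 and 499 at 8 h, and 55.8 and 68.4 at 24 h. The 8 h arrays were clear of sham, 2.95-fold higher (log2 change 1.56, SE 0.31). The log2 change at 1 h, 3.41 (10.6-fold higher), was the highest measured, beside the bound for Reg1a on M62930_at. At 4 h and 24 h the level was 2.17-fold and 2.23-fold lower.

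Reg1a encodes a small lectin-like protein of pancreatic juice. On E01983cds_s_at it read 173 and 156.5 on the sham arrays, 566 and 607 at 1 h, 52.7 and 156 at 4 h, 164 and 314 at 8 h, and 78.4 and 97.4 at 24 h. On M62930_at it read 25.1 and 5.6 on the sham arrays, 440 and 331 at 1 h, 1.3 and 5.5 at 4 h, 62.0 and 64.1 at 8 h, and 0.9 and 12.2 at 24 h. On both, the 1 h arrays were the highest, while the 8 h arrays overlapped sham on the first probe set and were above it on the second. At 1 h the first was 3.56-fold higher than sham (log2 change 1.83, SE 0.51) and the second at least 10.5-fold higher. The 4 h change of the first, -0.86, rested on 1 array: it was -0.08 without 4 h array 1 and -1.64 without 4 h array 2. Over the 10 arrays, the log2 values of the Reg1a probe sets correlated at r = 0.855.

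**Figure D1:**
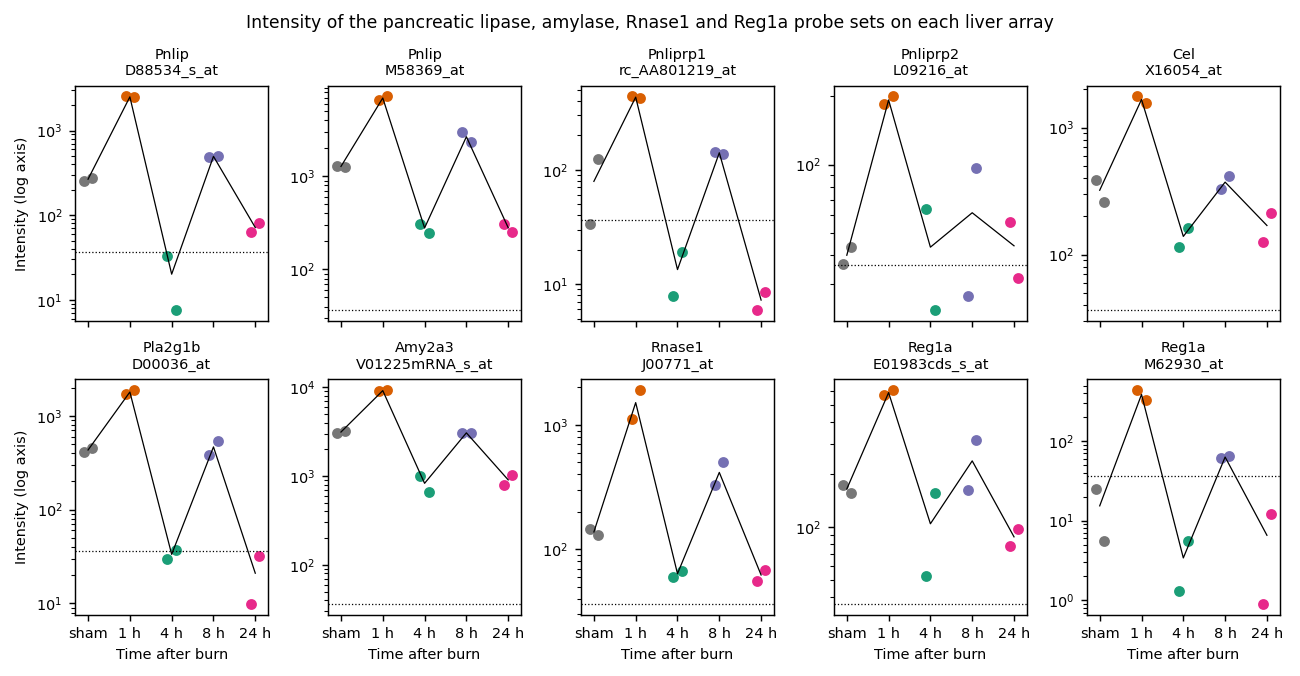
Intensity (log axis) of the 10 probe sets on each array, by time after the burn, with sham at the left. Points are arrays, lines join group means and the dotted line is the floor of 36.4. In every panel both 1 h points are above all other points.

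Counted by genes, all 8 had every probe set above sham on both 1 h arrays, where 21.7% of the probe sets tested were above and 20.9% below. At 4 h 5 of the 8 genes, Pnlip, Cel, Pla2g1b, Amy2a3 and Rnase1, were below sham on all their arrays and probe sets, against 25.8% of the probe sets tested, and none was above, against 20.1%. The same 5 genes were below sham at 24 h, against 29.2%, and none was above, against 24.6%. At 8 h 3 genes, Pnlip, Pnliprp1 and Rnase1, were above sham on all arrays, against 18.5%, and none was below, against 29.6%. The count of 3 above sham became 5 when sham array 1 was left out, 7 when 8 h array 1 was, and 5 after quantile normalization. Median log2 changes of the 10 probe sets were 2.42, -1.16, 0.68 and -1.05 at 1, 4, 8 and 24 h, against 0.015, -0.037, -0.10 and -0.044 over all probe sets tested. The 4 comparisons share the sham arrays, and the genes were chosen on them, so nothing is read from these counts.

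**Figure D2:**
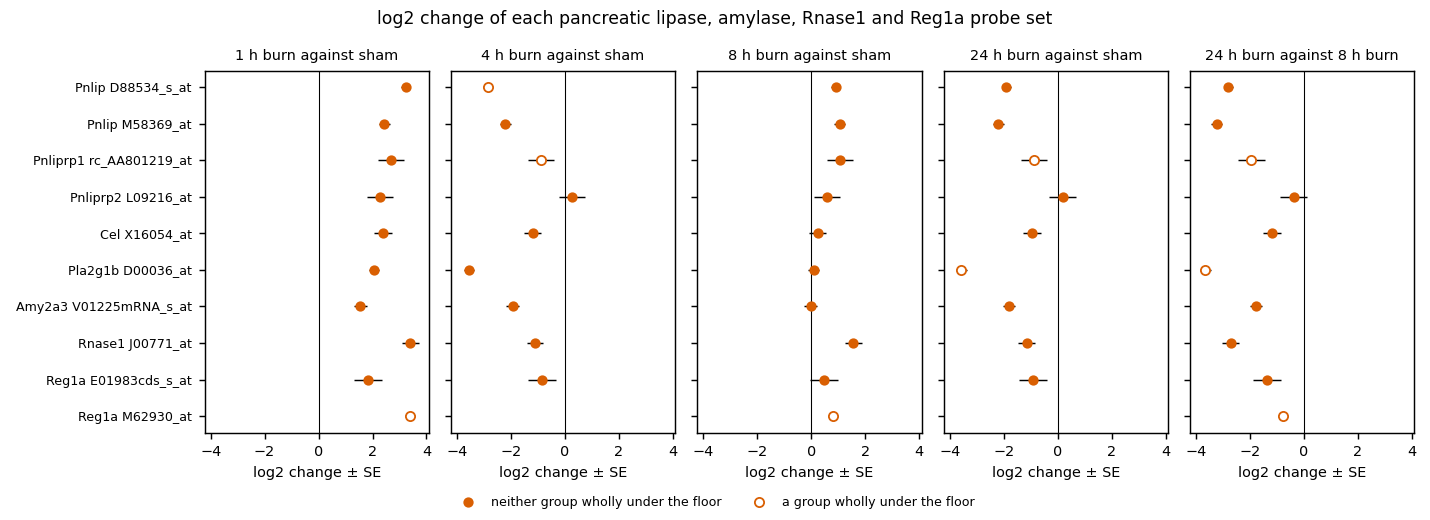
Log2 change with its SE for each probe set, in 5 panels: the 4 burn times against sham, then 24 h against 8 h. Open circles are bounds, where a group lay wholly under the floor, and changes between groups both under the floor are left out. All 10 points are right of 0 at 1 h, between 1.55 and 3.41, and all 10 are left of 0 for 24 h against 8 h.

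Between the last burn times, every probe set had a lower mean log2 level at 24 h than at 8 h. Pla2g1b was at least 12.6-fold lower (log2 change -3.66, SE 0.20), with both 24 h arrays under the floor. Pnlip was 9.47-fold lower on M58369_at (-3.24, SE 0.20) and 6.99-fold lower on D88534_s_at (-2.81, SE 0.17). Rnase1 was 6.58-fold lower (-2.72, SE 0.31) and Amy2a3 3.41-fold lower (-1.77, SE 0.23).

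The other probe sets had smaller differences or lay near the floor. Pnliprp1 was at least 3.86-fold lower at 24 h than at 8 h, with a log2 change of -1.95 (SE 0.49) that ran from -3.37 to -0.21 over the alternative settings. Reg1a was at least 1.73-fold lower on M62930_at, with both 24 h arrays under the floor, and had a log2 change of -1.38 (SE 0.51) on E01983cds_s_at. Cel had a log2 change of -1.17 (SE 0.33) and Pnliprp2 of -0.39 (SE 0.49). In all, 9 of the 10 probe sets and 7 of the 8 genes had both 24 h arrays below both 8 h arrays, against 24.9% of the probe sets tested, and 30.8% had them above. The 8 h and 24 h levels were among the values known when the genes were chosen, so nothing is read from this count either.

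The 8 genes had similar profiles, which their choice by group levels fixes. The log2 profile of each over the 10 arrays correlated with the mean profile of the other 7 at r = 0.749 (Pnliprp2) to 0.977 (Rnase1). Among 3135 other genes, the 8 closest to their mean profile were Rup2 (r = 0.989), Cela2a (0.987), Cpa1 (0.985), Cpb1 (0.981), Clps (0.976), Prss3b (0.975), Ctrb1 and Prss2 (0.97 each), over 10 arrays that share their groups. All but Rup2 encode pancreatic proteases or colipase, the partner of Pnlip. Rup2 moved over a narrower range, with 18966 and 18428 on the sham arrays, 28792 and 28714 at 1 h, 13779 and 12976 at 4 h, 21560 and 21128 at 8 h, and 14416 and 14457 at 24 h.

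The gene lists, like the 8 genes, were chosen with earlier results of these data known. So calls, counts and p-values in the lists describe these arrays and are no independent test. The protease and cofactor genes of acinar cells gave 14 tested genes of 16 on the array. A gene of a list is said to rise or fall where its limma p, adjusted by Benjamini-Hochberg across 5285 tests, was under 0.05. At 1 h 7 rose and none fell, leaving out Prss3bl1, which was called higher but had passed the filter on low values through its 1 h arrays alone. Of all probe sets tested, 0.795% rose and 0.643% fell. At 4 h 6 fell, at 24 h 7 fell, and none rose at either time. Of all probe sets tested, 1.99% fell and 2.37% rose at 4 h, and 6.34% fell and 3.94% rose at 24 h. At 24 h against 8 h 9 fell, where 5.94% of all fell and 5.81% rose, among them Prss1, a trypsinogen, at least 35.4-fold (limma adjusted p = 1.55e-05). The others included Cpb1, a carboxypeptidase, at least 14.1-fold, and Ctrb1, chymotrypsinogen, 30.4-fold (limma adjusted p = 7.09e-05 and 0.00014). Klk1, a kallikrein of many glands named after its value was seen, had both 8 h arrays under the floor. It rose at 24 h against 8 h (log2 change at least 1.10, limma adjusted p = 0.0341) and fell at 8 h against sham. These calls were lost in 9 and 6 of 16 alternatives. At 8 h Ctrb1 and Prss2 rose against sham. The Ctrb1 call at 8 h was lost when sham array 1, 4 h array 2 or either 8 h array was left out, and that of Prss2 in 14 of 16 alternatives. Of all probe sets tested, 1.55% rose and 1.95% fell at 8 h against sham. Clps had a log2 change of 1.45 at 1 h (limma adjusted p = 0.0582) and fell at 24 h against 8 h (-1.31, limma adjusted p = 0.0225), a call lost without either 8 h array and without 24 h array 1. All 1 h calls of these genes were lost in a fit of the 1 h and sham arrays alone.

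Other pancreatic genes gave few calls. So did all probe sets tested, of which at most 6.34% passed in 1 direction of a comparison. Nothing is therefore read from a lack of calls. Of 8 tested genes for acinar granules, membranes and receptors, 7 gave no call at any time. Of all probe sets tested, 21.7% had both 1 h arrays above both sham arrays, and among these 7 Cuzd1, Zg16 and Sycn had. Their log2 changes at 1 h were at least 2.44, 1.73 and 1.39 (limma adjusted p = 0.212, 0.274 and 0.286). Those of Dmbt1, Gamt, Rab3d and Sctr lay between -0.545 and 0.026. The gene called, Gp2, a granule membrane protein, read 137 and 142 at 1 h, against 11.2 and 19.1 on the sham arrays. It had passed the filter on low values through those 1 h arrays alone. Of 5 tested acinar transcription factors, Nr5a2, which the liver also makes, fell at 24 h (-1.28, limma adjusted p = 0.0325), a call lost in 9 of 16 alternatives, and no other passed in any comparison. Ptf1a was under the floor on all 10 arrays, at 4.4 to 30.8. No call was made among the 3 tested islet genes: Ins1 read 773 to 1170 and Ins2 812 to 1454 over the 10 arrays, and Iapp and Chgb were under the floor on all.

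**Figure D3:**
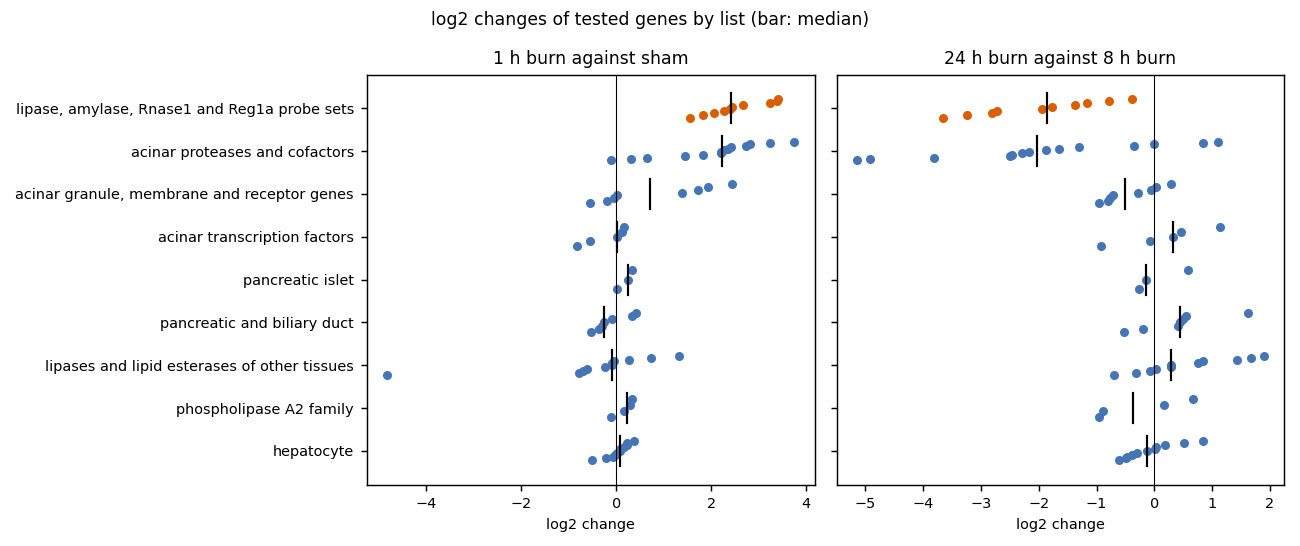
Log2 changes of the 10 probe sets (orange) and of the tested genes of 8 lists (blue) at 1 h against sham and at 24 h against 8 h, with a bar at each median. The medians of the 10 probe sets are 2.42 and -1.86, and those of the acinar proteases and cofactors 2.24 and -2.03. Pnliprp2, Reg1a on M62930_at, Prss3bl1 and Gp2 are plotted though they passed the filter through their 1 h arrays alone, so the 1 h medians are not compared.

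The summed intensity of the 16 acinar protease and cofactor genes moved in step with the 8 genes. It was 5683 to 5838 on the sham arrays, 26849 to 28152 at 1 h, 1559.5 to 1660 at 4 h, 7876 to 8140 at 8 h and 1656 to 2032 at 24 h. Not every gene of the list followed the sum. At 24 h Spink1 read 252 and 344, against 244 and 143 on the sham arrays. Tff2 read 127 and 142 at 24 h, against 75.0 and 18.1, and neither was called. The 12 islet genes summed to 4251 to 4662 on the sham arrays, 5098 to 5102 at 1 h, 3981 to 4807 at 4 h, 3900 to 4068 at 8 h and 3960 to 4141 at 24 h. Most of this sum came from the 3 that were tested, Ins1, Ins2 and Slc2a2. Slc2a2, the brightest by median, read 2509 and 2260 at 1 h, against 1818 and 1967 on the sham arrays. The sum is therefore not read as a measure of islet cells. The 11 hepatocyte genes summed to 333668 to 385102 on the 1 h arrays and 328301 to 375114 on the sham arrays, which overlapped. At 8 h they summed to 391013 to 402576, above all other arrays. The 5 erythroid genes summed to 51023 to 53317 on the sham arrays, 62367 to 71757 at 1 h, 39724 to 44336 at 4 h, 40599 to 47636 at 8 h and 40514 to 44209 at 24 h. The 5 Kupffer and phagocyte genes summed to 4326 to 4387 on the sham arrays, 4217 to 4618 at 1 h, 3399 to 3857 at 4 h, 4705 to 4710 at 8 h and 2955 to 3000 at 24 h. So erythroid sums were above sham at 1 h, as the 8 genes were, and the erythroid and Kupffer sums were both below sham at 4 h and 24 h. At 8 h the erythroid sums were below sham and the Kupffer sums above it, while 3 of the 8 genes were above sham on all their arrays. In bulk liver RNA, more cells of a type and more RNA per cell cannot be told apart, and the part of these cell types in the levels of the 8 genes was not tested.

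**Figure D4:**
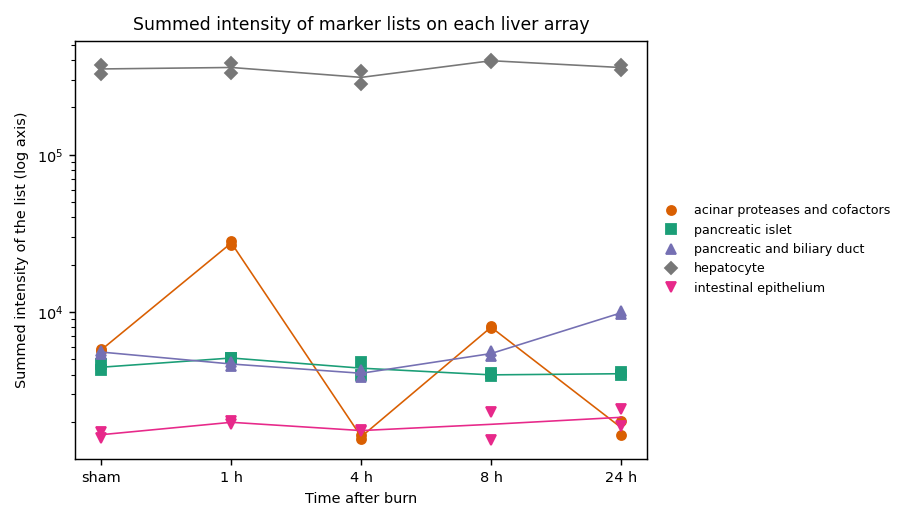
Summed intensity (log axis) of 5 marker lists on each array by time after the burn, with sham at the left. Points are arrays and lines join group means. The acinar proteases and cofactors peak at 1 h and again at 8 h. The hepatocyte sums stay between 280290 and 402576 and are highest at 8 h, where both arrays lie above sham.

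Relatives of the 8 genes with roles in the liver were read beside them. None of the 11 tested lipases and lipid esterases of other tissues passed as higher at 1 h. Only 0.795% of all probe sets tested did, so nothing is read from this count. The median log2 change of the 11 was -0.091. Ces1d, a carboxylesterase, read 1649 and 843 at 1 h, against 460 and 486 on the sham arrays (log2 change 1.32, limma adjusted p = 0.372). Ces2e, a carboxylesterase, read 58.1 and 35.1 at 1 h, against 1450 and 1174.5 on the sham arrays, and stayed between 31.3 and 105 at 4, 8 and 24 h, but it had passed the filter through its sham arrays alone. At 8 h Ces1c, a carboxylesterase, and Lipc, hepatic lipase, fell by 4.41-fold (limma adjusted p = 0.00418) and 2.44-fold (limma adjusted p = 0.0185), and both rose at 24 h against 8 h. The Lipc call was lost in 4 of 16 alternatives at 8 h and in 12 of 16 at 24 h against 8 h (adjusted p 0.0204 to 0.183). Lipa, lysosomal acid lipase, named after its value was seen, fell at 24 h against 8 h (-0.71, limma adjusted p = 0.023), a call lost in 5 of 16.

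None of 4 tested phospholipase A2 genes and neither of Gaa, a lysosomal glucosidase, and Rnh1, the ribonuclease inhibitor, passed in any comparison. Of all probe sets tested, at most 6.34% passed in 1 direction of a comparison, so nothing is read from this. Rnase4, a liver ribonuclease related to Rnase1, read 8353 and 9131 on the sham arrays, 7561 and 7932 at 1 h, 5126 and 5089.5 at 4 h, 6991 and 7237.5 at 8 h, and 1890.5 and 2357 at 24 h. Like Rnase1 it was lower at 4 h and 24 h than at 8 h, and unlike Rnase1 its 1 h arrays lay below sham. It fell at 24 h (limma adjusted p = 0.000717) and at 24 h against 8 h (-1.75, limma adjusted p = 0.00123), and its call at 4 h (-0.77, limma adjusted p = 0.0476) was lost without any 1 of the 10 arrays.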

How the data were processed

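The deposited table gives a linear intensity for each probe set on each array, between 0.1 and 97822.9. The authors had scaled the arrays alike: the mean after removal of 2% of values at each end was 500.91 to 501.04 on each, as the deposited values show. Their software is not given in the sources used. Array medians were 100.1 to 131.1, and 70.3% to 76.85% of values lay above the floor. Arrays correlated at 0.9483 to 0.9552 within groups and at most 0.9411 between groups. Between 8 and 24 values were identical within a pair, so no array was a copy.

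The floor of 36.4 is the median, over arrays, of the 25th percentile. Lower values were raised to it before log2 values were taken. Probe sets above their array's median on at least 2 arrays were tested, 5285 in all, and all 10 probe sets of the 8 genes passed. A single limma 3.58.1 model held all 5 groups (R 4.3.3, no covariates, 5 residual degrees of freedom, two-sided, Benjamini-Hochberg), which was checked on simulated data. Symbols came from the probe table of the array: 7018 probe sets had 1 symbol, 308 several and 1473 were not listed.

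The genes and the 18 gene lists were chosen with earlier results of these data known. A gene with several probe sets stood in a list by the tested one of highest mean. Genes named from a list were up to 4 with the smallest p of limma's F test over burn times, besides defining markers and the 8 closest profiles. Klk1, Lipa, Prss3bl1, Spink1, Tff2, Dmbt1, Gamt, Rab3d and Sctr were named outside this rule. Alternatives were quantile normalization, floors at the 10th and 50th percentiles, no filter, the replicate number as a block, each array left out, and the compared groups alone. The comparison of 24 h with 8 h had been planned as a test for the 8 genes too, but it is given for them as a description, since their levels at all times were known when they were chosen. The number of arrays limits every value's precision.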

Additional observations from a re-analysis of the deposited data

Results flagged for a closer look

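Each value here is a difference of log2 changes between consecutive burn times, the later minus the earlier, for a probe set whose arrays all lay above sham at one time and all below sham at the other. For 4 h minus 1 h the differences were -6.10 and -4.65 for Pnlip (D88534_s_at and M58369_at), -5.60 for Pla2g1b, -4.52 for Rnase1, -3.60 for Cel, -3.49 for Amy2a3 and -2.69 for Reg1a (E01983cds_s_at). For 8 h minus 4 h they were 3.77 and 3.26 for Pnlip and 2.68 for Rnase1. For 24 h minus 8 h they were -2.81 and -3.24 for Pnlip and -2.72 for Rnase1. The -6.10 and 3.77 of D88534_s_at are bounds, at least that large in size, since both its 4 h arrays were under the floor. The floor also enters the -5.60 of Pla2g1b, with 1 of its 4 h arrays under it. The differences were not tested, since the genes had been chosen on them.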

How the results depend on the processing

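The count of the 8 genes with every array above sham at 1 h was 8 under each alternative, and the count below sham at 4 h and at 24 h was 5 to 6 with an array left out. With an array left out, 0 to 1 genes were above sham at 4 h and at 24 h. At 8 h, 3 to 7 were above and 0 to 2 below with an array left out, and quantile normalization gave 5 above and 1 below. At 24 h against 8 h, 7 to 8 genes were below and 0 to 0 above with an array left out. A floor at the 50th percentile brought the 1 h change of Pnliprp2 down to 0.66, and its construction shows why. Over all genes, 76, 230, 185 and 543 probe sets were called at 1, 4, 8 and 24 h and 621 at 24 h against 8 h. The floor at the 50th percentile gave 133, 374 and 312 at 1, 4 and 8 h, and no filter 280 at 8 h; the cause was not tested. The compared groups alone, with fewer degrees of freedom, gave 0 at 1 h (limma; 574 at unadjusted p under 0.05), 69 at 4 h, 0 at 8 h (limma; 779), 104 at 24 h and 167 at 24 h against 8 h. With an array left out the ranges were 26 to 76, 117 to 222, 27 to 112, 224 to 495 and 257 to 572. The replicate numbers were not taken as pairing the arrays, since the correlation of same-numbered deviations was 0.0111 to 0.170 and over 0.1 in 5 of 10 pairs of groups, though all 10 were above 0. With the number as a block, 72, 240, 156, 583 and 654 probe sets were called. Of 156 alternatives for the probe sets of the 8 genes at 24 h against 8 h, 1 had the other sign. Of 624 alternatives for changes against sham, 47 moved by over 1 SD and 8 had the other sign. Values near the floor, as for Pnliprp2, are limited by their signal.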

Other observations

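Marker genes of other cell types gave few calls, as did all probe sets tested. Krt18, a keratin of duct and liver epithelium, was the only 1 of 7 tested duct genes to pass, and rose at 24 h (6726 and 7310, against 2266 and 2468 on the sham arrays, limma adjusted p = 0.00251) and at 24 h against 8 h (log2 change 1.61). Of 4 tested Kupffer and phagocyte genes, Clec4f, a receptor of Kupffer cells, fell at 24 h (-0.82, limma adjusted p = 0.0145, lost in 5 of 16 alternatives), and Clec4f and C1qb, a complement subunit, fell at 24 h against 8 h (-0.90 and -0.87, lost in 4 and 7 of 16). Of 11 tested hepatocyte genes, Fgb, a fibrinogen chain, rose at 8 h and 24 h (0.79 and 0.80, lost in 12 and 5 of 16), and Apob rose at 24 h against 8 h (0.84, lost in 8 of 16). Hba-a3, an alpha globin gene and 1 of 5 tested erythroid genes, fell at 24 h (-2.92, limma adjusted p = 0.0171) and at 24 h against 8 h (-3.07), each lost in 3 of 16, with 1 of its 24 h arrays under the floor.

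Of 2 tested adipose genes Cfd, adipsin, fell at 4 h (46.0 and 56.8, against 291 and 189 on the sham arrays, limma adjusted p = 0.00585, lost in 2 of 16). Nupr1, the only tested gene of the Reg family and pancreatic stress list, fell at 8 h (-1.05, limma adjusted p = 0.0446), a call lost with any 1 array left out. No call was made in any comparison among the 6 tested intestinal, 4 stomach and salivary, 3 muscle and 5 lymphocyte genes. With few calls among all probe sets tested, nothing is read from this.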
